A study of Homo sapiens with 18 samples.

Results

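The centrosomal genes described here are the 39 genes of the count table whose symbol is CEP followed by a number, or is PCM1, OFD1, ODF2, CNTRL, PCNT, NIN or CDK5RAP2. They were chosen by symbol from 58870 genes, 32 by the CEP number and 7 by name, and no measured value entered the rule. RNA came from HEK293T cells, a human embryonic kidney line, 72 hours after transfection with a base editor and a guide. A base editor is a Cas9 nickase fused to a deaminase that changes single bases near the guide's site. NRF1-guide cells carried a guide aimed at a splice site of exon 7 of NRF1, which encodes an activator of genes with GC-rich promoters. Intergenic-guide cells carried a guide against a site outside genes. Both kinds of guide were used with SaABE (adenine deaminase ABE8e on nSaCas9), SpABE (ABE8e on nSpCas9) and SpCBE (cytosine deaminase evoCDA1 on nSpCas9). This gave 6 groups of 3 libraries and 18 libraries in all. All groups, controls included, received a plasmid, an active editor and 48 hours of puromycin. The cells were a transfected pool, so edited and unedited alleles were measured together. SaABE used a different intergenic guide and a different plasmid backbone from SpABE and SpCBE. Per the paper, the NRF1 guides were aimed at the splice donor or acceptor of exon 7. The NRF1 guide and its site may thus differ between editors, and cannot be told apart from the editor where NRF1 effects are compared.

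The centrosome is built from a pair of centrioles, barrels of microtubules that duplicate once per cell cycle, and the pericentriolar material around them, which nucleates microtubules. Appendages on the older centriole anchor microtubules and dock it at the membrane when it becomes the base of a cilium. Centriolar satellites are granules scaffolded by PCM1 that carry proteins to the centrosome and cilium.

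Libraries held 28101094 to 40687447 estimated counts. All 39 members passed the filter on low counts that left 17743 genes, and the lowest count of any member in any library was 109. NRF1 itself was at 35.7 to 43.8 CPM (counts scaled to library size in CPM units, with TMM factors) in NRF1-guide libraries and at 24.4 to 33.1 CPM in intergenic-guide libraries. A count over the whole gene does not measure exon skipping, so it checks no label. Of the markers listed for embryonic kidney lines, VIM was at 625 to 791 CPM and PAX2 at 1.23 to 3.63 CPM. Markers of other cell types, such as PTPRC, CD3E and HBB of blood or CDH5 and VWF of endothelium, reached at most 0.167 CPM. Those above this level included COL1A1 (14.5 to 21.6 CPM), CD68 (0.38 to 1.55 CPM), LUM (0.207 to 0.623 CPM), PECAM1 (0.034 to 0.272 CPM) and the multiciliated-cell markers FOXJ1 (2.21 to 35.7 CPM), DNAH5 (0.0285 to 0.407 CPM) and DNAI1 (0.0374 to 0.374 CPM).

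NRF1 binds a palindromic GC-rich element, so the promoters of the members were searched for the NRF1 element (its palindromic consensus, with either pyrimidine in the variable position) on both strands, in the RefSeq windows (GRCh38.p14) from 250 bases before to 50 bases after each start. Windows were found for 35 of the 39 members, 48 windows in all. CEP250, CEP78 and PCM1 were among the members without one. The element lay in 4 member windows (8.33%), against 4.37% of the 16960 windows of tested genes and 2.77% of all 35116 windows. It lay in 17.3% of the 709 windows of genes called lower over all editors, and in 5.3% of the 132 windows of genes called higher. The shorter core TGCGCA, which can overlap the longer element, lay in 4 member windows (8.33%), 11.5% of windows of tested genes and 8.24% of all windows. The core lay in 35.4% of the windows of genes called lower and 12.9% of those of genes called higher. The 4 members with the longer element are shown because their transcripts moved in different directions. CEP170 is shown for its 3 copies of the core, the most in any member window. Each line is the 200 bases before the start, on the strand of the gene, with the longer element in capitals for the first 4 lines and the core in capitals for CEP170.
CEP295, chr11:93661482-93661681, plus strand: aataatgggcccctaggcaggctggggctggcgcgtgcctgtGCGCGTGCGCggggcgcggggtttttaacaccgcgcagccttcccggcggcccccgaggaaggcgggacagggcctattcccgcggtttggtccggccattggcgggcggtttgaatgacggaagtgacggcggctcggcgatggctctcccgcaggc
CEP192, chr18:12991162-12991361, plus strand: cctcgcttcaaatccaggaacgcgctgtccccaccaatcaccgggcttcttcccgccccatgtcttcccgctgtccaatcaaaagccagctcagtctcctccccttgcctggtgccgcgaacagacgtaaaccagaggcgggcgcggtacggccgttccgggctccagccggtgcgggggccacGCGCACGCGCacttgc
PCNT, chr21:46323956-46324155, plus strand: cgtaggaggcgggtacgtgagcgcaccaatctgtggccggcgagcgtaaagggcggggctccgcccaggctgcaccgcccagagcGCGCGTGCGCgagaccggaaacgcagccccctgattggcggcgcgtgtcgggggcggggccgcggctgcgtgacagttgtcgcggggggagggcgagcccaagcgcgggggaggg
CEP19, chr3:196712251-196712450, minus strand: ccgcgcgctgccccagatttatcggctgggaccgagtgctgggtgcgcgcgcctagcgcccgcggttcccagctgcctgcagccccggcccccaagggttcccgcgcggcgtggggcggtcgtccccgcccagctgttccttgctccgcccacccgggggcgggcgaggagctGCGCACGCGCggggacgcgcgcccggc
CEP170, chr1:243255282-243255481, minus strand: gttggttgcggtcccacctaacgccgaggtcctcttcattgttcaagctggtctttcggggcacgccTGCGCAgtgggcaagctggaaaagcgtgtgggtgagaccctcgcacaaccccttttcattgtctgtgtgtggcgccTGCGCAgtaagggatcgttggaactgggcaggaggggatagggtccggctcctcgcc
The third core of CEP170 lies after the start and is not shown. A match in these windows is a description of the letters and not a measured binding site.

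Over all 3 editors, the NRF1 guide moved the centrosomal transcripts in both directions and by small amounts. CEP63, which recruits the centriole duplication machinery with CEP152, rose by 0.55 ± 0.03 (SE) on the log2 scale, and was the 1 member past both an adjusted p of 0.05 and an absolute log2 fold change of 0.5, the rule used for a called gene. Called members were 2.56% of the list, against 5.5% of all tested genes. Among those that fell were CEP295, by 0.35 ± 0.04, and CEP72, by 0.34 ± 0.05. The median log2 fold change of the members was 0.007, against 0.013 over all tested genes, and 23 members lay within 0.1 of zero.

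The test was edgeR's quasi-likelihood test with the editor as a term, adjusted by Benjamini-Hochberg over all tested genes. In what follows a gene rose or fell where its adjusted p was under 0.05, whatever the size. At that threshold 15 members passed (38.5%, against 39.4% of all tested genes), of which 6 rose and 9 fell. That is 15.4% and 23.1% of the list, against 20.6% and 18.8% of all tested genes. Of these 15 members, 14 had the same sign in all 3 editors, and the exception was CEP41. Of the other 24 members, 3 had the same sign in all 3 editors. The 15 were picked by a test over the same libraries that favours effects alike in all editors. Their agreement in sign is thus no separate support, and the share over all tested genes was not computed.

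**Figure D1:**
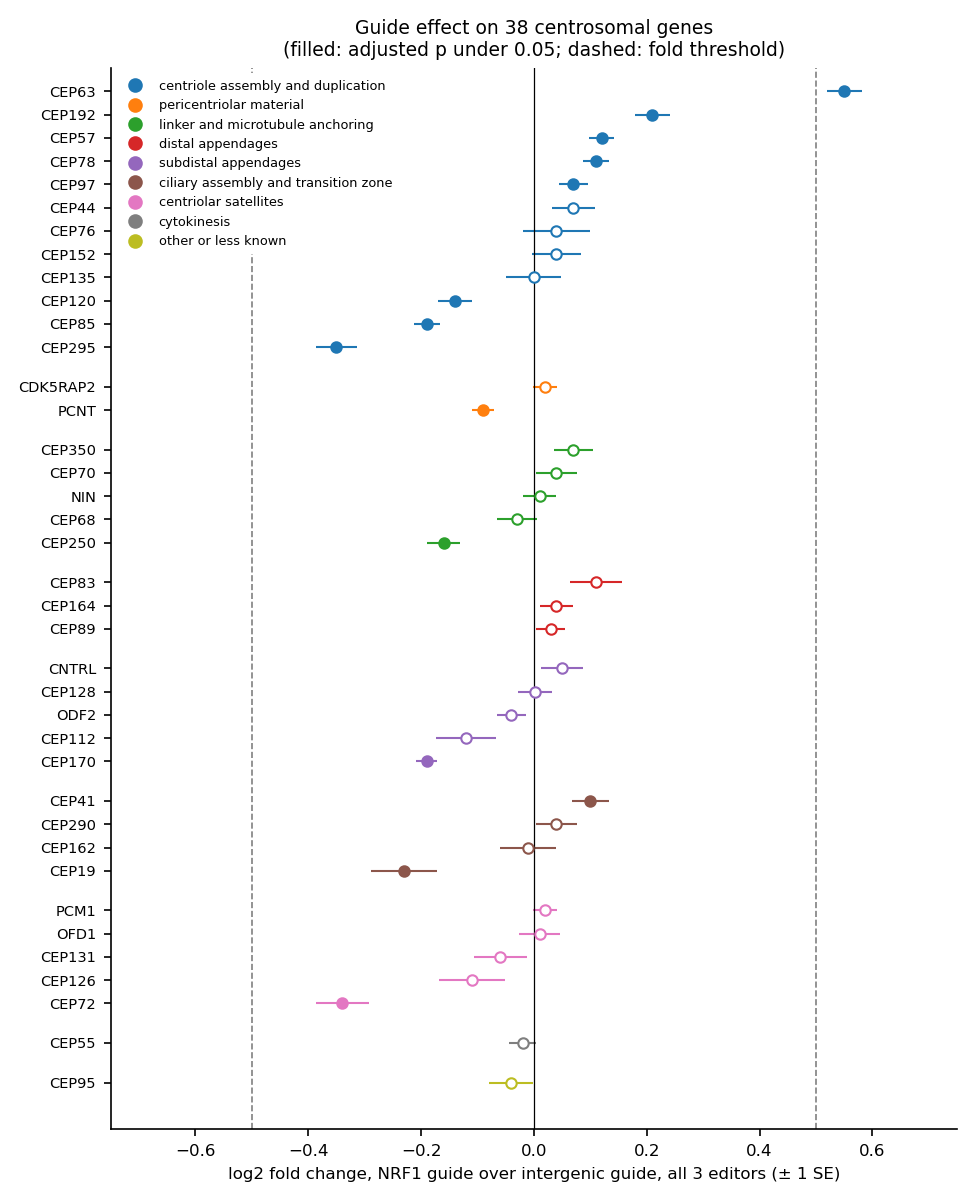
Log2 fold change of the NRF1 guide over the intergenic guide across all 3 editors for 38 members, coloured by role, with 1 standard error. Filled points have an adjusted p under 0.05, and CEP63 at 0.55 is the only point outside the dashed lines at 0.5 and -0.5.

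Of the 12 members with roles in centriole assembly and duplication, 5 rose, 3 fell and 4 did not pass the test. Those that passed were 66.7% of this group, against 39.4% of all tested genes, and the group was not tested as a set. CEP63 was at 22.8, 21.1 and 21.6 CPM in SaABE NRF1 libraries and 14.0, 14.7 and 16.0 CPM in SaABE intergenic libraries. It was at 24.2, 25.2 and 25.6 CPM in SpABE NRF1 libraries and 17.8, 16.9 and 16.6 CPM in SpABE intergenic libraries. In SpCBE it was at 26.1, 26.2 and 25.6 CPM with the NRF1 guide and 17.9, 17.2 and 18.5 CPM with the intergenic guide. The guides' ranges did not overlap within or across editors. The rises were 0.55 ± 0.06 in SaABE, 0.55 ± 0.05 in SpABE and 0.54 ± 0.05 in SpCBE, each called (adjusted p = 2.42e-08, 6.82e-09 and 9.37e-09). The CEP63 call over all editors (adjusted p = 3.47e-13) lay just inside the fold threshold and was kept in each of the 18 fits that left out 1 library, with log2 fold changes of 0.54 to 0.56. Its 2 promoter windows held neither NRF1 element.

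CEP63 lies at chromosome 3, bases 134485699 to 134587789 of hg38, on the plus strand. It overlaps ANAPC13, a subunit of the anaphase-promoting complex on the other strand, by 1018 bases at their starts. ANAPC13 had a log2 fold change of -0.01 (adjusted p = 0.727) at a mean of 53.5 CPM. A long non-coding RNA gene without a name lies on the same strand and shares 102069 bases with CEP63. It had no value in the count table, and its reads cannot be told apart from those of CEP63 at any strand setting. The strand setting of the counting is not given in the sources used here, so reads from genes that overlap on opposite strands cannot be told apart. This touches 28 members, 16 of which overlap a protein-coding gene on the other strand.

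CEP152, the partner of CEP63 in the ring around the mother centriole, was at 16.0 to 22.9 CPM in NRF1-guide libraries and 15 to 24.1 CPM in intergenic-guide libraries, a log2 fold change of 0.04 ± 0.04 (adjusted p = 0.497). CEP57, the third protein of that ring, rose by 0.12 ± 0.02 (adjusted p = 0.000132). Its lowest, median and highest values were 96.0, 99.0 and 116 CPM with the NRF1 guide and 85.4, 93.3 and 109 CPM with the intergenic guide. The groups overlapped across editors but not within any editor, although in SaABE the lowest NRF1-guide and the highest intergenic-guide library both rounded to 109 CPM. Without the editor term the CEP57 log2 fold change was 0.115 and its adjusted p 0.122.

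CEP192, a scaffold that brings PLK4 and Aurora A to the centrosome, rose by 0.21 ± 0.03 (adjusted p = 5.24e-06). Its values were 26.9, 24.0 and 26.1 CPM in SaABE NRF1 libraries against 22.7, 24.3 and 21.5 CPM in SaABE intergenic libraries. They were 26.9, 28 and 27.5 CPM in SpABE NRF1 libraries against 24.9, 23.5 and 23.8 CPM in SpABE intergenic libraries, and 29.9, 31.2 and 29.4 CPM in SpCBE NRF1 libraries against 25.6, 24.2 and 25.4 CPM in SpCBE intergenic libraries. The groups did not overlap in SpABE and SpCBE. CEP78, a protein of mature centrioles, rose by 0.11 ± 0.02 (adjusted p = 0.000267) and CEP97, which caps growing centrioles, by 0.07 ± 0.03 (adjusted p = 0.0372).

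CEP295, needed for a new centriole to become a centrosome, fell in each editor. It was at 32.5, 31.7 and 35.1 CPM in SaABE NRF1 libraries and 40.7, 41.7 and 38.3 CPM in SaABE intergenic libraries. It was at 35.8, 34.7 and 37.2 CPM in SpABE NRF1 libraries and 50.4, 47.7 and 41.4 CPM in SpABE intergenic libraries. In SpCBE it was at 45, 47.7 and 42.5 CPM with the NRF1 guide and 63.1, 58.8 and 56.2 CPM with the intergenic guide. The groups did not overlap within any editor, but the editors' own levels differed so much that SpCBE NRF1 libraries lay above SaABE intergenic libraries. The falls were 0.28 ± 0.07 in SaABE, 0.37 ± 0.06 in SpABE and 0.40 ± 0.06 in SpCBE (adjusted p = 0.00171, 2.95e-05 and 9.87e-06). Of the members with the longer NRF1 element in the promoter sequences shown above, CEP192 thus rose, while CEP295, CEP19 and PCNT fell.

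CEP85, which acts with STIL in centriole duplication, was at 57.0, 58.5 and 62.5 CPM (lowest, median, highest) in NRF1-guide libraries and 65.2, 67.0 and 70.0 CPM in intergenic-guide libraries, with no overlap. It fell by 0.19 ± 0.02 (adjusted p = 5.13e-07). CEP120, which acts in centriole elongation, fell by 0.14 ± 0.03 (adjusted p = 0.000495). CEP44 and CEP76 had log2 fold changes of 0.07 and 0.04, and CEP135, of the centriole's cartwheel, was within 0.1 of zero (adjusted p = 0.994).

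Among the members with roles in ciliary assembly and the transition zone, CEP19 fell and CEP41 rose. CEP19, a protein of the ciliary base, had one of the lowest CPM levels of the members, without scaling for its length. It fell by 0.23 ± 0.06 (adjusted p = 0.0028). It was at 8.50, 6.25 and 7.34 CPM in SpCBE NRF1 libraries and 9.69, 10.2 and 9.78 CPM in SpCBE intergenic libraries, a fall of 0.42 ± 0.09 (adjusted p = 0.000738). In SaABE it was at 7.79, 6.81 and 6.74 CPM with the NRF1 guide and 7.44, 7.81 and 7.86 CPM with the intergenic guide, which overlapped. In SpABE it was at 6.67, 7.33 and 7.22 CPM with the NRF1 guide and 8.09, 7.56 and 7.79 CPM with the intergenic guide, which did not overlap, but the difference missed the test (adjusted p = 0.244). Without the SpCBE libraries the adjusted p over the other editors was 0.0863. All of CEP19 lies within PIGX on the other strand (5974 shared bases), and PIGX fell by 0.25 (adjusted p = 2.78e-06). PIGX was named after its values were seen.

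CEP41, which acts in the glutamylation of ciliary tubulin, rose by 0.10 ± 0.03 (adjusted p = 0.0178), and its log2 fold change was 0.04 (adjusted p = 0.474) without the SpABE libraries. Without the SpCBE libraries the log2 fold change was 0.102 with an adjusted p of 0.0912, and without the editor term it was 0.101 with an adjusted p of 0.0681. CEP290 and CEP162, both of the transition zone, had log2 fold changes of 0.04 and -0.01.

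Of the 5 centriolar satellite members, 1 fell. CEP72, which acts in bringing CEP290 to satellites, was at 10.4, 12.8 and 11.6 CPM in SaABE NRF1 libraries and 17.4, 15.2 and 16.7 CPM in SaABE intergenic libraries. It was at 12.7, 14.1 and 13.9 CPM in SpABE NRF1 libraries and 15.2, 15.8 and 17.3 CPM in SpABE intergenic libraries. In SpCBE it was at 13.7, 14.1 and 13.6 CPM with the NRF1 guide and 17.3, 16.2 and 16.7 CPM with the intergenic guide. The highest of the 9 NRF1-guide values (14.1 CPM) was under the lowest of the 9 intergenic-guide values (15.2 CPM). Its fall was 0.51 ± 0.07 in SaABE, which was called there (adjusted p = 8.49e-06), and 0.25 ± 0.07 in SpABE and 0.28 ± 0.07 in SpCBE. The SaABE call lay at the fold threshold and was lost without SaABE NRF1 replicate 1, SaABE intergenic replicate 1 or SaABE intergenic replicate 3, with log2 fold changes of -0.58 to -0.44 over the 18 fits that left out a library. TPPP, which overlaps CEP72 by 7307 bases on the other strand and was named after its values were seen, rose by 0.18 (adjusted p = 0.000319).

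PCM1, the satellite scaffold, was at 115 to 143 CPM in NRF1-guide libraries and 114 to 142 CPM in intergenic-guide libraries, a log2 fold change of 0.02 ± 0.02 (adjusted p = 0.578). OFD1, CEP131 and CEP126 had log2 fold changes of 0.01, -0.06 and -0.11, and OFD1 and CEP131 differed between editors as described below.

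**Figure D2:**
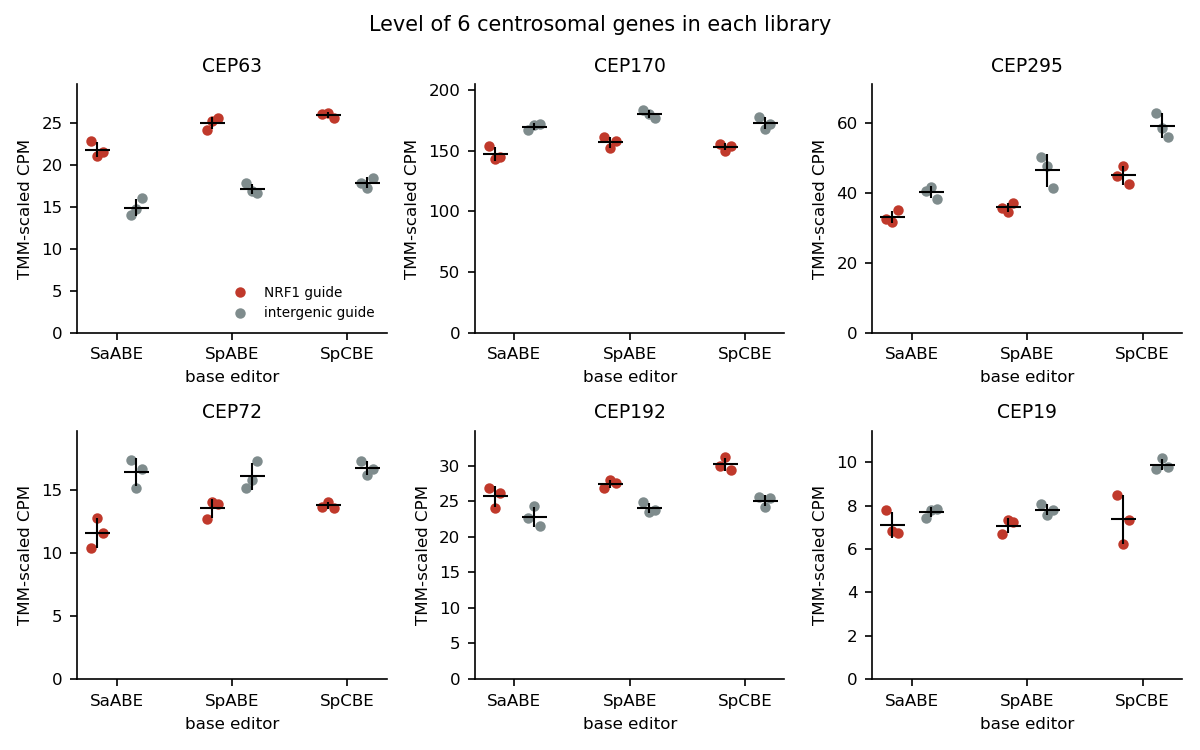
TMM-scaled CPM of 6 members in each library (points), with the mean and SD of each group of 3, NRF1 guide left of intergenic guide for each editor. CEP63 is higher, and CEP170 and CEP72 are lower, for the NRF1 guide in each editor, and the levels of CEP295 differ between editors as well as between guides.

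Of the 5 subdistal appendage members, 1 fell. CEP170, which joins these appendages to microtubules, was at 143, 154 and 161 CPM (lowest, median, highest) in NRF1-guide libraries and 167, 172 and 184 CPM in intergenic-guide libraries. The groups did not overlap, and CEP170 fell by 0.19 ± 0.02 (adjusted p = 1.72e-08), with log2 fold changes of -0.21 in SaABE, -0.20 in SpABE and -0.17 in SpCBE. It is the member shown above with 2 of its 3 NRF1 cores before the start. CEP112 had a log2 fold change of -0.12 ± 0.05 (adjusted p = 0.0736), and CNTRL, CEP128 and ODF2 had log2 fold changes of 0.05, 0.00 and -0.04.

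PCNT, the scaffold of the pericentriolar material, fell by 0.09 ± 0.02 (adjusted p = 0.00127), at 144 to 172 CPM in NRF1-guide libraries and 153 to 186 CPM in intergenic-guide libraries. The groups overlapped. Without the editor term its log2 fold change was -0.088 and its adjusted p 0.19. CDK5RAP2, which binds gamma-tubulin complexes, had a log2 fold change of 0.02 ± 0.02 (adjusted p = 0.598). CEP250, at the root of the linker between centrioles, fell by 0.16 ± 0.03 (adjusted p = 8.99e-05), at 47.9 to 57.1 CPM with the NRF1 guide and 52.9 to 59.7 CPM with the intergenic guide. CEP250 was grouped with CEP350, CEP70, NIN and CEP68 under the linker between centrioles and the anchoring of microtubules. These others lay between -0.03 and 0.07. The distal appendage members CEP83, CEP164 and CEP89 had log2 fold changes of 0.11 (adjusted p = 0.0672), 0.04 and 0.03. None of them passed the test, against 39.4% of all tested genes. CEP83 passed with DESeq2 (adjusted p = 0.0432). CEP55, which acts in the final cut of cell division, had a log2 fold change of -0.02 ± 0.02 (adjusted p = 0.547), and CEP95, whose function is less known, -0.04 ± 0.04 (adjusted p = 0.467).

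Across editors, 2 members lay higher without overlap in each editor (CEP63 and CEP57) and 5 lay lower (CEP170, CEP295, CEP85 and CEP72 among them). That is 5.13% and 12.82% of the list, against 6.24% and 8.99% of all tested genes. With the 9 libraries of each guide pooled, CEP63 lay above without overlap, and CEP170, CEP85 and CEP72 were among those that lay below. The shares of all tested genes that lay so with the libraries pooled were not computed. Per kilobase of annotated exon, the most abundant member was CEP55 (20.4 CPM per kilobase), followed by CEP170 (14.9) and CEP57 (13.9), and the least abundant were CEP63 (0.841), CEP112 (0.699) and CEP126 (0.581). The lengths join all annotated exons of a gene, 24294 bases for CEP63, and can exceed the length of a single transcript, which lowers the value. Members past the test over all editors lay at both ends of this order.

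Within single editors, SaABE gave 2 called members (CEP63 and CEP72; 5.13% against 6.05% of all tested genes), SpABE gave 1 (CEP63; 2.56% against 6.41%) and SpCBE gave 1 (CEP63; 2.56% against 4.45%). CEP19 was also called in SpCBE when SpCBE NRF1 replicate 1, its highest NRF1-guide library, was left out. At the adjusted p alone, 6 members rose and 7 fell in SaABE, 5 rose and 13 fell in SpABE, and 5 rose and 8 fell in SpCBE. In SaABE this is 15.4% and 17.9% of the list, against 16.9% and 15.5% of all tested genes, and in SpCBE 12.8% and 20.5%, against 11% and 12%. The rises in SpABE were 12.8% against 15.4%. The falls in SpABE were 33.3% of the list against 17.3% of all tested genes, and ranged from 10 to 13 members when 1 library was left out. The member median was -0.07 in SpABE, against -0.002 over all tested genes. Of 11 G1 to S markers, such as MCM5 and CDC6, 7 fell and none rose in SpABE, and of 11 mitotic markers 2 fell and 1 rose there. Their part in the SpABE values was not tested.

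Differences between the editors' guide effects were tested directly in a fit with 6 group means. These differences share libraries: each editor's effect enters 2 of the 3 comparisons. The NRF1 guide, its site and the editor cannot be told apart in them. Every difference that passed the test was one with SpABE. Between SpABE and SpCBE, 5 members (12.8%, against 8.96% of all tested genes) passed the adjusted p, all with a lower effect in SpABE (4.42% of all tested genes had one). None was called past the fold threshold (1.43% of all tested genes were), with 10 members at an unadjusted p under 0.05 in edgeR and 0 called by DESeq2. Between SaABE and SpABE, 6 members (15.4%, against 11.7%) passed the adjusted p, and CEP76 was called (2.56%, against 1.56%). Between SaABE and SpCBE, 0 members passed the adjusted p (against 4.09%) or were called (against 0.614%), with 6 at an unadjusted p under 0.05 in edgeR and 0 passing by DESeq2. Of the 11 G1 to S markers, 8 had a lower and 0 a higher effect in SpABE than in SpCBE (median difference -0.223), and 6 had a higher and 0 a lower effect in SaABE than in SpABE. Within SpCBE, 5 of these markers rose and 1 fell. Their part in the members' differences was not tested.

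CEP76, which limits centrioles to one duplication per cycle, rose by 0.28 ± 0.07 in SaABE (adjusted p = 0.00305) and fell by 0.24 ± 0.07 in SpABE (adjusted p = 0.0081). It was at 18.3, 17.7 and 18 CPM in SaABE NRF1 libraries and 12.7, 15.7 and 15.9 CPM in SaABE intergenic libraries. It was at 15, 14.2 and 13.7 CPM in SpABE NRF1 libraries and 17.4, 16.6 and 16.7 CPM in SpABE intergenic libraries. The groups did not overlap in either editor and lay in opposite order. In SpCBE it was at 17.5, 17.6 and 16.9 CPM with the NRF1 guide and 17.8, 16.0 and 15.4 CPM with the intergenic guide, which overlapped. The effect in SaABE minus that in SpABE was 0.53 ± 0.10 (adjusted p = 0.001). The call was lost without SaABE intergenic replicate 1 or SpABE NRF1 replicate 3, where the difference fell under the fold threshold, and its adjusted p was at most 0.00483 over all 18 fits that left out a library. All of CEP76 (40945 bases) lies within PSMG2, a proteasome assembly gene on the other strand. PSMG2, named after its values were seen, had log2 fold changes of 0.33 in SaABE, -0.16 in SpABE and 0.14 in SpCBE at a mean of 27.6 CPM.

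CEP131, a satellite protein, was at 31.1, 33.4 and 33.5 CPM in SpABE NRF1 libraries and 36.1, 44 and 39 CPM in SpABE intergenic libraries, a fall of 0.28 ± 0.05 (adjusted p = 0.000189). In SpCBE it was at 42.7, 45 and 43.0 CPM with the NRF1 guide and 39.6, 41.4 and 40.5 CPM with the intergenic guide, a log2 fold change of 0.10 ± 0.05 (adjusted p = 0.17). The groups did not overlap in either editor, and the SpABE effect minus the SpCBE effect was -0.39 ± 0.07 (adjusted p = 0.0015). CEP95 also fell in SpABE. It was at 52.7, 49.3 and 50.4 CPM in SpABE NRF1 libraries and 61.9, 60.3 and 55.2 CPM in SpABE intergenic libraries, a fall of 0.22 ± 0.04 (adjusted p = 0.000417), without overlap. In SpCBE it was at 59.5, 62.0 and 57.2 CPM with the NRF1 guide and 59.1, 53.9 and 54.7 CPM with the intergenic guide, which overlapped, a log2 fold change of 0.09 ± 0.04 (adjusted p = 0.148). CEP95 overlaps the much more abundant DDX5 (711 CPM) on the other strand by 1335 bases, and DDX5 had log2 fold changes of -0.03 in SaABE, 0.07 in SpABE and 0.03 in SpCBE.

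CEP68, a linker protein, fell by 0.19 ± 0.04 in SpABE (adjusted p = 0.000672), where it was at 30.3, 28 and 29.0 CPM with the NRF1 guide and 33.7, 33.9 and 32.0 CPM with the intergenic guide. Its log2 fold changes were 0.00 in SaABE and 0.09 in SpCBE. OFD1, a satellite and centriole-end protein, rose by 0.16 ± 0.05 in SpCBE (adjusted p = 0.0113), at 35.7, 35.6 and 35.8 CPM with the NRF1 guide and 32.3, 32.3 and 31 CPM with the intergenic guide. In SpABE it was at 30.6, 28.6 and 30.2 CPM with the NRF1 guide and 32.8, 33.3 and 29.0 CPM with the intergenic guide, which overlapped. CEP83, at the base of the distal appendages, rose by 0.30 ± 0.06 in SaABE (adjusted p = 0.000424), at 26.1, 23.9 and 23.2 CPM with the NRF1 guide and 18.5, 21.1 and 19.9 CPM with the intergenic guide. Its log2 fold change in SpABE was -0.07 ± 0.06. CEP41 went the other way and rose by 0.22 ± 0.04 in SpABE (adjusted p = 0.000223), at 29.3, 31.1 and 29.8 CPM with the NRF1 guide and 25.6, 26.6 and 25.0 CPM with the intergenic guide, against a log2 fold change of -0.03 ± 0.04 in SaABE. CEP131, CEP41, CEP68 and OFD1 were named after their values were seen.

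**Figure D3:**
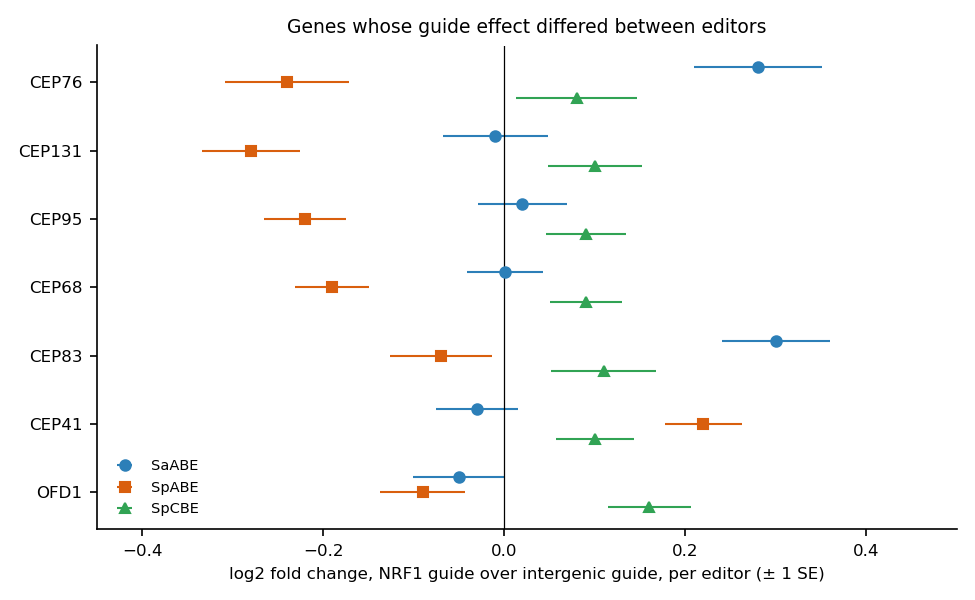
Log2 fold change of the NRF1 guide over the intergenic guide in SaABE, SpABE and SpCBE with 1 standard error, for the 7 members whose effect differed between a pair of editors at an adjusted p under 0.05. The SpABE values of CEP76, CEP131, CEP95 and CEP68 lie between -0.28 and -0.19, apart from the other editors.

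The intergenic controls show how far centrosomal transcripts differed between editors without the NRF1 guide. Most members were lower in SaABE controls. Their summed level was 1805 to 1878 CPM in SaABE intergenic libraries, 1957 to 2039 CPM in SpABE intergenic libraries and 2045 to 2130 CPM in SpCBE intergenic libraries. In SaABE controls relative to SpCBE controls, 24 members were lower and 1 was higher at the adjusted p. The lower ones were 61.5% of the list, against 20.6% of all tested genes, and the higher one 2.56%, against 20.1%, and the member median was -0.186 against -0.01. In SaABE controls relative to SpABE controls, 21 were lower and 1 was higher (53.8% against 19.1% lower, 2.56% against 19.3% higher), with a median of -0.143 against 0.002. When 1 library was left out, the lower members numbered 20 to 25 and 17 to 21 in these comparisons. The member that was higher in both was CEP57, by 0.18 ± 0.04 and 0.25 ± 0.04. SpABE controls relative to SpCBE controls had 6 members higher (15.4%, against 17.7%) and 12 lower (30.8%, against 17.8%), with a median of -0.033 against -0.003. The 3 comparisons share control libraries.

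Most of these differences were small. CEP295 was called lower in SaABE than in SpCBE controls, by 0.56 ± 0.06 (adjusted p = 5.4e-08; 1 called member, 2.56%, against 8.04% of all tested genes), from the per-library values given above. CEP162 and CEP152 were called lower in SaABE than in SpABE controls (5.13%, against 7.03%). CEP162, which acts in assembly of the transition zone, was at 14.3, 17.2 and 16.7 CPM in SaABE controls and 24.6, 24.0 and 22.4 CPM in SpABE controls, lower by 0.56 ± 0.08 (adjusted p = 6.48e-06). CEP152 was at 16.1, 17.2 and 15 CPM in SaABE controls and 23.7, 24.1 and 20.5 CPM in SpABE controls, lower by 0.50 ± 0.07 (adjusted p = 8.75e-06). Neither gene's groups overlapped. The CEP162 call was lost without SaABE intergenic replicate 1, and the CEP152 call without SaABE intergenic replicate 3 or SpABE intergenic replicate 1 or 2, each through the fold threshold (0.48 and 0.45 at the least). Between SpABE and SpCBE controls 0 members were called (against 6.19% of all tested genes), with 20 at an unadjusted p under 0.05 in edgeR and 0 called by DESeq2.

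CDK5RAP2 was not called but had the smallest p of all members in this comparison, lower by 0.34 ± 0.03 in SaABE than in SpCBE controls (adjusted p = 2.21e-09). CDK5RAP2 was at 71.2, 74.1 and 74.7 CPM in SaABE controls and 94.9, 90.2 and 94.2 CPM in SpCBE controls, with no overlap. CEP55 was at 56.9, 60.9 and 58.8 CPM in SaABE controls and 75.3, 73.9 and 73.6 CPM in SpCBE controls, lower by 0.34 ± 0.04 (adjusted p = 1.59e-07). Cell cycle markers moved in the same comparison: of 11 mitotic markers 6 were lower and 2 higher in SaABE than in SpCBE controls, and 8 were lower and 1 higher in SaABE than in SpABE controls. Of 11 G1 to S markers, 6 were lower and 2 higher, and 9 were lower and 1 higher, in the same pairs. Of 59 tested genes listed as other parts of the centrosome pathway, 29 were lower and 5 higher, and 26 were lower and 2 higher. The summed level of 4 multiciliated-cell markers, most of it FOXJ1, lay the other way, at 31.36 to 31.92 CPM in SaABE controls, 15.58 to 17.85 CPM in SpABE controls and 3.86 to 4.72 CPM in SpCBE controls. The part of the cell cycle or of these markers in the members' differences was not tested, and the editor, the intergenic guide and the plasmid of SaABE cannot be told apart.

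**Figure D4:**
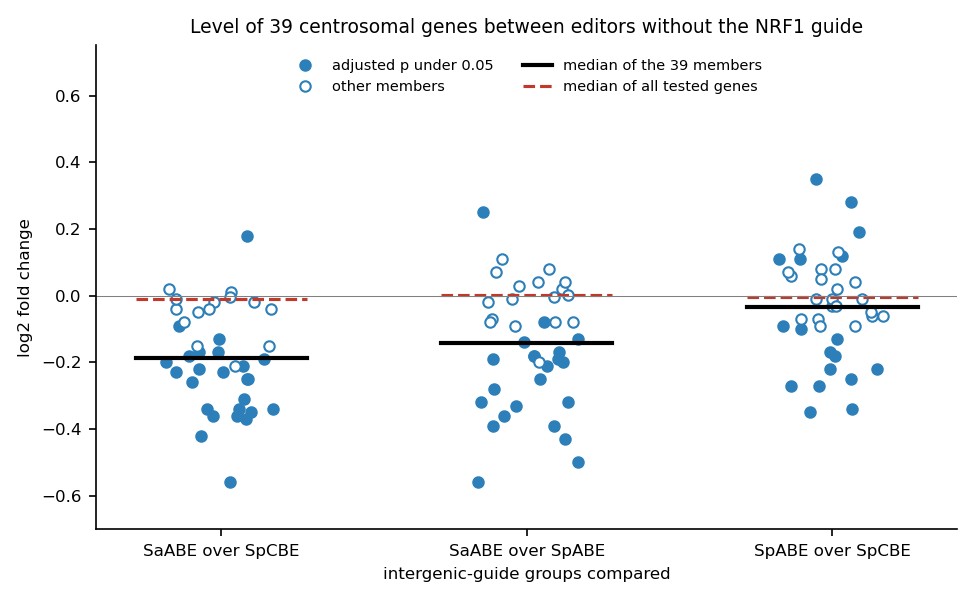
Log2 fold change of each of the 39 members between the intergenic-guide groups of the editors named on the horizontal axis, first over second. Filled points have an adjusted p under 0.05, the black bar is the member median and the dashed bar the median of all tested genes, and the members lie below the other genes in both comparisons of SaABE, with medians of -0.186 and -0.143.

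The other genes of the pathway were read from a list of 60 centriole, linker, appendage and gamma-tubulin genes that are not members, of which 59 were tested. Over all editors 15 rose and 11 fell (25.4% and 18.6%, against 20.6% and 18.8% of all tested genes), and 4 were called, all lower (6.78%, against 5.5%). These falls were larger than that of any member. ANKRD26, a distal appendage protein, was at 6.23 to 9.43 CPM in NRF1-guide libraries and 18.6 to 27.9 CPM in intergenic-guide libraries, a fall of 1.59 ± 0.04 (adjusted p = 6.14e-20). The paper had already examined ANKRD26 as an NRF1 target gene, and it is counted among the 4 called genes here. CCDC120, which acts at subdistal appendages, was at 7.79 to 10.8 CPM with the NRF1 guide and 20.1 to 24.1 CPM with the intergenic guide, a fall of 1.13 ± 0.05 (adjusted p = 4.33e-15). CNTLN, a linker protein that binds CEP250, was at 6.77 to 11.1 CPM with the NRF1 guide and 15 to 19.0 CPM with the intergenic guide, a fall of 0.99 ± 0.05 (adjusted p = 1.91e-14). TUBGCP4, a subunit of the gamma-tubulin ring complex, was at 42.5 to 46.9 CPM with the NRF1 guide and 65.7 to 75.7 CPM with the intergenic guide, a fall of 0.65 ± 0.02 (adjusted p = 2.2e-17). None of the 4 had overlapping groups, but they were picked as called in the same libraries. The share of all tested genes without such overlap was not computed. Of the mitotic markers 3 rose and 1 fell over all editors, and of the G1 to S markers 2 rose and 4 fell.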

How the data were processed

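Polyadenylated RNA of 18 HEK293T libraries, 6 groups of 3, was made with a stranded mRNA kit. Per the study's methods, reads were trimmed with Cutadapt 1.18 and aligned to hg38 with STAR 2.7.0f (2-pass). DESeq2 1.46.0 stands in the submitters' processing notes as well. Values in the deposited table are estimated counts, which the authors left without normalization. How reads were counted (program, strand, multiple matches) is not given in the sources used here. Of nonzero values 19.63% were not whole, by a tolerance of 1e-06, and estimated counts were rounded for the tests, which had been planned for whole counts. Of 36 sample columns, 18 belong to other samples and were not used. No row lacked a gene name.

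Genes passing filterByExpr by group (17743) were scaled by TMM and tested with edgeR 4.0.16 quasi-likelihood fits in R 4.3.3, with Benjamini-Hochberg adjustment over all genes tested. The fit over all editors had the editor as an additive term (biological coefficient of variation 4.37%). Editor effects, their differences and the control comparisons came from 6 group means (3.1%). Genes were called at the study's thresholds, an adjusted p below 0.05 with an absolute log2 fold change above 0.5. Standard errors (SE) were back-calculated as the absolute log2 fold change divided by the square root of the test's F statistic. Levels are TMM-scaled CPM. Gene positions and exon lengths are from GENCODE on hg38, where all 39 identifiers were found, and promoters are from RefSeq. The fits were tested on simulated data. No label says that replicates are separate cultures, so p-values cover only the spread among these libraries, possibly technical. All replicate pairs differed by more than sampling noise.

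Members, roles and lists were chosen with earlier results of these data known. Named members are those called, the 10 with the smallest p over all editors, the 2 with the smallest p in each role group, and the 4 with the smallest p among calls of each other comparison. The called genes of the other pathway list are named too. Other members, and neighbours other than ANAPC13, were named after their values were seen. The same-strand neighbour of CEP63 had no values and was added later. Alternatives were RLE scaling, no filter, a filter at 1 CPM in 9 or more libraries, DESeq2 1.42.0, a replicate block, no editor term, and leaving out each library or editor. Values of 1 member and of 1 marker gene are not reported here; both stay in the counts.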

Additional observations from a re-analysis of the deposited data

Results flagged for a closer look

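The guide effects of 7 members differed between a pair of editors in a test of the difference itself, over the 39 members and 3 pairs of editors. The SpABE effect minus the SpCBE effect was -0.39 for CEP131 (adjusted p = 0.0015), -0.31 for CEP95 (adjusted p = 0.00224), -0.28 for CEP68 (adjusted p = 0.00237), -0.25 for OFD1 (adjusted p = 0.017) and -0.32 for CEP76 (adjusted p = 0.0353). CEP131, CEP95 and CEP68 passed in every fit that left out 1 library. OFD1 missed the threshold without SpABE NRF1 replicate 2, SpABE intergenic replicate 2 or SpCBE intergenic replicate 3 (adjusted p up to 0.0696). CEP76 missed it in 10 of 18 such fits (up to 0.105), and passed only without 1 of the SaABE libraries, SpABE NRF1 replicate 1 or SpCBE intergenic replicate 1.

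The SaABE effect minus the SpABE effect was 0.53 for CEP76 (adjusted p = 0.001), 0.37 for CEP83 (adjusted p = 0.00461), -0.25 for CEP41 (adjusted p = 0.01), 0.23 for CEP95 (adjusted p = 0.0217), 0.28 for CEP131 (adjusted p = 0.0247) and 0.19 for CEP68 (adjusted p = 0.0344). CEP76, CEP83 and CEP41 passed in every fit that left out 1 library. CEP131 missed the threshold without SaABE NRF1 replicate 3, SaABE intergenic replicate 2, SpABE NRF1 replicate 1 or SpABE intergenic replicate 2 (adjusted p up to 0.0874). CEP95 missed it without SaABE NRF1 replicate 1, SaABE intergenic replicate 3, SpABE NRF1 replicate 2 or 3, or SpABE intergenic replicate 1 or 2 (up to 0.0687). CEP68 passed in only 5 of 18 such fits (up to 0.118) and missed it with DESeq2 and without the filter.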

How the results depend on the processing

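The CEP63 call over all editors was kept under every alternative run, with log2 fold changes of 0.54 to 0.56. The count of called members stayed within 1.5 times its reported value in all comparisons under RLE scaling, no filter, the CPM filter and DESeq2. Leaving out 1 library gave 1 to 2 called members in SaABE, 1 to 2 in SpCBE, 0 to 1 for SaABE minus SpABE and 1 to 2 for SaABE against SpABE controls, and 14 to 17 members past the adjusted p alone over all editors, where 15 are reported. Counts of lower members at the adjusted p alone were followed in SpABE and in the 2 SaABE control comparisons, an addition made after seeing the data, and stayed within 1.5 times under every alternative run. Same-numbered libraries deviated from their group means with correlations of -0.349 to 0.166 over 10023 genes, which gave no clear pairing by number. Deviations within a group of 3 libraries offset each other, so these values cannot exclude that same-numbered libraries were handled together. Under a replicate block 1 member was called between SaABE and SpABE controls (CEP162), the CEP76 difference between SpABE and SpCBE had an adjusted p of 0.0505 and the CEP68 difference between SaABE and SpABE one of 0.0761. No direction of a called value was reversed. Among all genes, 976 were called over all editors, 662 with the CPM filter, 1132 without a filter and 833 without the editor term. Promoter windows were read for 35 members only, 3 libraries per group limit what differences between editors can show, and overlapping genes on opposite strands cannot be told apart. The same holds for CEP63 and the long non-coding RNA gene on its own strand.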
